A study of Rattus norvegicus with 8 samples.

Results

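The plasminogen activation system of rat skin was followed through 5 genes, which were the 2 activators Plau (urokinase) and Plat (tissue-type activator), the urokinase receptor Plaur, the inhibitor Serpinb2 (plasminogen activator inhibitor type 2) and F3 (tissue factor). They were taken by gene symbol from the accessions of the array's probes, 5 of 13903 genes that could be named. F3 starts the clotting cascade and is neither an activator nor an inhibitor of plasminogen, so Serpinb2 was the only inhibitor in the set. Each gene had 1 probe with 1 spot, and all 5 probes were well above background in all 8 samples.

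Male Sprague-Dawley rats had been injected intraperitoneally with streptozotocin (STZ), which destroys the insulin-producing beta cells, at 60 mg/kg at 4 weeks of age, or had been sham-treated with sodium citrate solution. Full-thickness skin was taken 4 weeks later, at 8 weeks of age, and its RNA was hybridised to 1-colour Agilent arrays. The labels list 4 STZ and 4 sham samples, but replicates 1 and 3, and replicates 2 and 4, of each group were 2 scans of the same array, so that 2 STZ arrays stood against 2 sham arrays. Among repeat spots, the deviation from the mean of the spot's probe had a correlation of 0.973 to 0.991 between scans of 1 array and of 0.385 to 0.723 between other samples. A cutaneous wound is also named in the labels, which leave unclear if it applies to the skin measured here. Blood glucose and the number of rats behind an array are not given in the sources used here, so p-values measure only the spread between these arrays.

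Plasminogen circulates as an inactive precursor, and urokinase and tissue-type activator cut it into plasmin, which dissolves fibrin and degrades other matrix proteins. The urokinase receptor holds urokinase at the cell surface and so places plasmin formation at the edge of migrating cells, while the serpins of the system block both activators. In skin the system is known for its part in wound repair, where keratinocytes at the wound margin make urokinase and its receptor. Tissue factor, made by cells outside the vessel lining, binds factor VII and leads to the fibrin that plasmin later removes.

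Plaur and Serpinb2 were the furthest above their sham level, Plau and Plat were higher by less, and F3 differed by less than the spread between arrays. The log2 changes were 3.28 for Plaur, 2.81 for Serpinb2, 1.31 for Plau, 1.29 for Plat and 0.30 for F3. At an unadjusted p under 0.05, 4 of the 5 genes were higher in STZ, where 7.3% of all tested probes were higher. No gene of the set passed after adjustment over all tested probes, and neither did any other probe on the array (0% called). Both STZ arrays lay above both sham arrays for 4 of the 5 genes, as they did for 26.8% of all tested probes (17.9% had both STZ arrays below). Markers of several immune cell types were higher on the same arrays. The median log2 change was 2.65 over 11 tested neutrophil markers, some of them dim in part of the samples. It was 2.0 over 16 macrophage and dendritic cell markers and 2.31 over 14 T and NK cell markers. Their part in these values was not tested. In whole skin, more cells of a type and more RNA per cell cannot be told apart. The values depend on single arrays. Without the array of sham replicates 2 and 4 every change was smaller. The changes were then 2.78 for Plaur, 2.21 for Serpinb2, 1.23 for Plau, 0.73 for Plat and −0.12 for F3. Without the array of STZ replicates 1 and 3, those of Serpinb2 (1.82) and Plau (0.86) were lower still. Plaur was then at 2.89, Plat at 1.34 and F3 at 0.41. All changes are STZ minus sham relative to the median change of all tested probes. That median was 0.23 on the log2 scale with all 4 arrays, after each sample was scaled to its 75th percentile. The p-values test the change before that median was taken off. Levels are log2 intensity over the sample's 75th percentile, and levels of different probes cannot be compared with each other.

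Over the whole array, 21529 of 24684 probes were tested, of which 1572 were higher and 757 lower in STZ at an unadjusted p under 0.05, the latter being 3.52%. After quantile normalization these counts were 1212 and 1152. The 75th percentile of intensity was 606 to 1496 in STZ samples and 1138 to 1336 in sham samples, lowest in the scans of STZ replicates 2 and 4. No spot was saturated. Krt14 and Krt15, keratins of the basal epidermis, and Col3a1 and Col1a2, collagens of the dermis, were well above background in all 8 samples, and the tissue label holds on these markers.

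**Figure D1:**
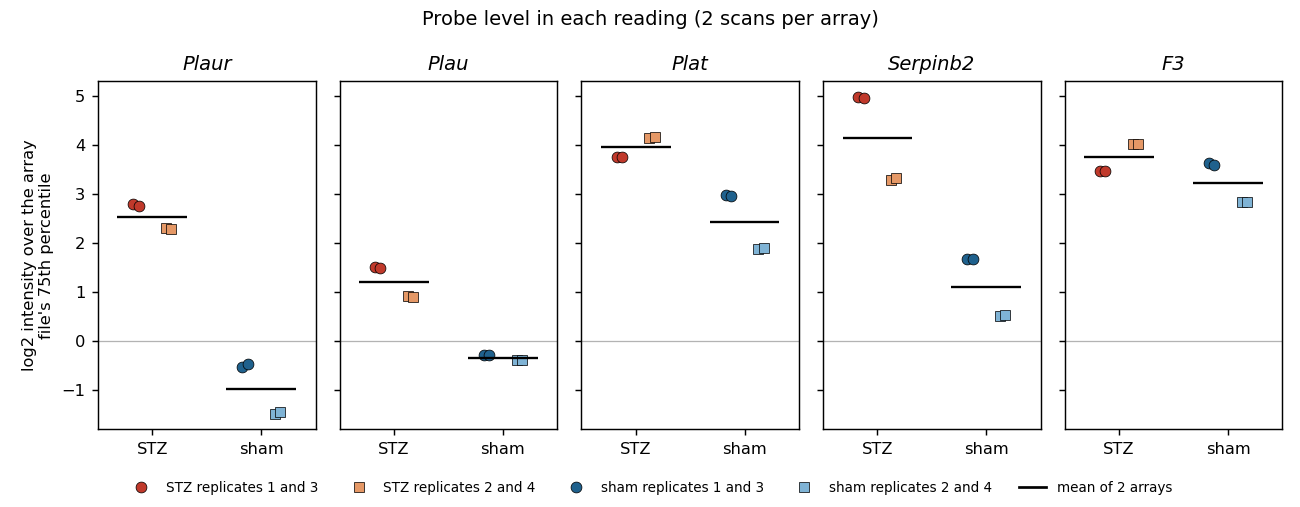
Level of each probe (log2 intensity over the sample's 75th percentile, vertical axis) in the 8 readings, 2 scans for each of 2 STZ and 2 sham arrays, with a line at the mean of the 2 arrays of a group. Both STZ arrays lie above both sham arrays for Plaur, Plau, Plat and Serpinb2, while for F3 the array of STZ replicates 1 and 3 lies below that of sham replicates 1 and 3.

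The urokinase receptor Plaur anchors urokinase to the cell and is carried by myeloid cells and by migrating keratinocytes. Its processed intensity was 10330 and 10031 in the 2 scans of the first STZ array (replicates 1 and 3) and 3002 and 3030 in those of the second (replicates 2 and 4), against 792 and 848 on the first sham array (replicates 1 and 3) and 467 and 492 on the second (replicates 2 and 4). Scaled to the 75th percentile, the log2 level was 2.77 and 2.29 on the STZ arrays, against −0.50 and −1.46 on the sham arrays. The lowest STZ array lay 2.79 above the highest sham array, a wider gap than the 0.48 between the STZ arrays or the 0.96 between the sham arrays. Means were 2.53 ± 0.34 in STZ and −0.98 ± 0.68 in sham (SD, n = 2 arrays each). The log2 change was 3.28 ± 0.53 (SE), which is 9.74-fold (95% interval 3.76 to 25.2), with an unadjusted p of 0.00122 and an adjusted p of 0.144 in limma's moderated test. Of all tested probes, 1.32% had a larger change.

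Serpinb2 inhibits urokinase and, less readily, tissue-type activator, and is made by keratinocytes and by activated macrophages. Its processed intensity was 46614 and 46551 on the first STZ array and 5872 and 6219 on the second, against 3612 and 3729 on the first sham array and 1850 and 1940 on the second. The log2 level was 4.97 and 3.30 on the STZ arrays, against 1.67 and 0.52 on the sham arrays. The groups did not overlap, but the 2 STZ arrays lay 1.67 apart, slightly more than the 1.63 between the lower STZ array and the higher sham array. Group means were 4.13 ± 1.18 in STZ and 1.1 ± 0.81 in sham (SD, n = 2 arrays each). The log2 change was 2.81 ± 0.76 (SE), 7.01-fold (95% interval 1.81 to 27.2), with an unadjusted p of 0.0104 and an adjusted p of 0.262 by limma. It was 1.82 without the first STZ array. A larger change was seen for 2.10% of tested probes.

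Plau encodes urokinase, the activator that works on cell surfaces through Plaur. Its processed intensity was 4210 and 4237 on the first STZ array and 1143 and 1162 on the second, against 940 and 967 on the first sham array and 992 and 1025 on the second. The log2 level was 1.5 and 0.91 on the STZ arrays, against −0.28 and −0.39 on the sham arrays. The sham arrays thus lay close together, and the lower STZ array was 1.18 above the higher of them. Before scaling, the second STZ array was only slightly brighter for Plau than the sham arrays, and its place above them after scaling reflects its lower 75th percentile. Means were 1.21 ± 0.42 in STZ and −0.33 ± 0.08 in sham (SD, n = 2 arrays each). The log2 change was 1.31 ± 0.46 (SE), 2.48-fold (95% interval 1.1 to 5.58), with an unadjusted p of 0.0197 and an adjusted p of 0.333 by limma. Without the first STZ array the change was 0.86.

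Plat encodes the tissue-type activator, which works mainly on fibrin and is released by endothelium and other cells. Its processed intensity was 19973 and 20045 on the first STZ array and 10700 and 11084 on the second, against 8929 and 9128 on the first sham array and 4789 and 4951 on the second. The log2 level was 3.75 and 4.15 on the STZ arrays, against 2.97 and 1.89 on the sham arrays. The groups did not overlap, yet the 1.08 between the sham arrays was wider than the 0.78 that separated the groups. Means were 3.95 ± 0.28 in STZ and 2.43 ± 0.76 in sham (SD, n = 2 arrays each). The log2 change was 1.29 ± 0.55 (SE), 2.45-fold, with an unadjusted p of 0.0394 and an adjusted p of 0.432 by limma. Relative to the median of all probes, its 95% interval of 0.92 to 6.53-fold included no change. Without the second sham array the change was 0.73, with an unadjusted p of 0.251.

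F3 encodes tissue factor, the cell-surface starter of coagulation. Its processed intensity was 16440 and 16643 on the first STZ array and 9834 and 10064 on the second, against 14031 and 14187 on the first sham array and 9220 and 9505 on the second. The log2 level was 3.47 and 4.02 on the STZ arrays, against 3.61 and 2.83 on the sham arrays, so the groups overlapped by 1 array of each. Means were 3.74 ± 0.38 in STZ and 3.22 ± 0.55 in sham (SD, n = 2 arrays each). The log2 change was 0.30 ± 0.51 (SE), 1.23-fold, with an unadjusted p of 0.350 and an adjusted p of 0.714 by limma. The 95% interval of 0.496 to 3.05-fold leaves room for a lower as well as a higher level. The change was −0.12 without the second sham array.

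**Figure D2:**
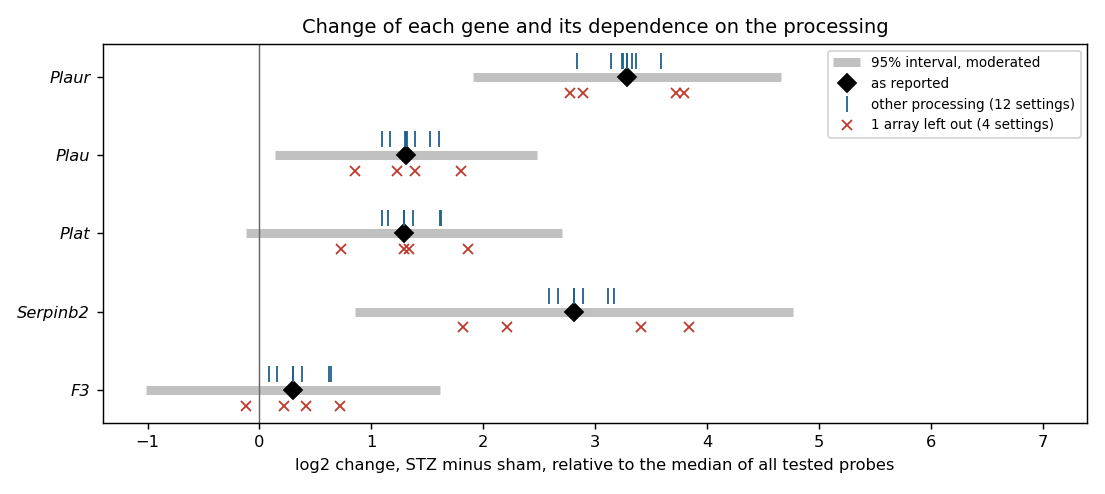
Log2 change of each gene (horizontal axis, STZ minus sham less the median change over all tested probes) as reported (diamond) with its 95% interval (grey bar), under 12 other ways of processing (upper ticks) and with 1 of the 4 arrays left out (crosses below). Plaur stays between 2.78 and 3.79 over all 16 alternatives and Serpinb2 between 1.82 and 3.84, while F3 spans −0.12 to 0.72. Some alternatives (8 separate samples, replicate blocks and weights on the arrays) alter only the error and return the reported change.

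The arrays of a group did not order the genes alike. Plaur, Plau and Serpinb2 were higher on the first STZ array than on the second, by 0.48, 0.60 and 1.67 on the log2 scale. Plat and F3 ran the other way, with the second STZ array higher by 0.40 and 0.54. On the sham arrays all 5 genes were higher on the first, by 0.11 for Plau and by 0.78 to 1.14 for the other 4. The 2 scans of an array differed by at most 0.06 for any of the 5 genes.

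Differences between the probes of 2 genes within an array do not depend on how the arrays were scaled, and they show whether the groups differ by unequal amounts for the genes. Of the 10 pairs that the 5 genes form, 8 had STZ and sham arrays that did not overlap, as did 46.3% of all pairs of tested probes in either direction. The 10 pairs share 5 probes and are not independent. With 2 arrays against 2, an exact permutation test cannot go below a two-sided p of 0.333, so no p is given for them. The receptor differed by more than its ligand. Plaur minus Plau was 1.27 and 1.39 on the STZ arrays, against −0.22 and −1.07 on the sham arrays, a shift of 1.97. Serpinb2 minus Plau, inhibitor over protease, was 3.46 and 2.39 on the STZ arrays, against 1.94 and 0.91 on the sham arrays. The shift was 1.5, with the 2.39 of the second STZ array close to the 1.94 of the first sham array. Plau minus F3 was −1.97 and −3.11 on the STZ arrays, against −3.89 and −3.21 on the sham arrays, so the groups nearly touched. Serpinb2 minus Plat shifted by 1.52, with −0.85 on the second STZ array close to the −1.30 and −1.36 of the sham arrays. Plat minus F3 was 0.27 and 0.13 on the STZ arrays, against −0.64 and −0.94 on the sham arrays, a shift of 1.0. In 2 pairs the groups overlapped. Plau minus Plat had means of −2.74 in STZ and −2.76 in sham, and Plaur minus Serpinb2 had −1.60 in STZ and −2.07 in sham.

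**Figure D3:**
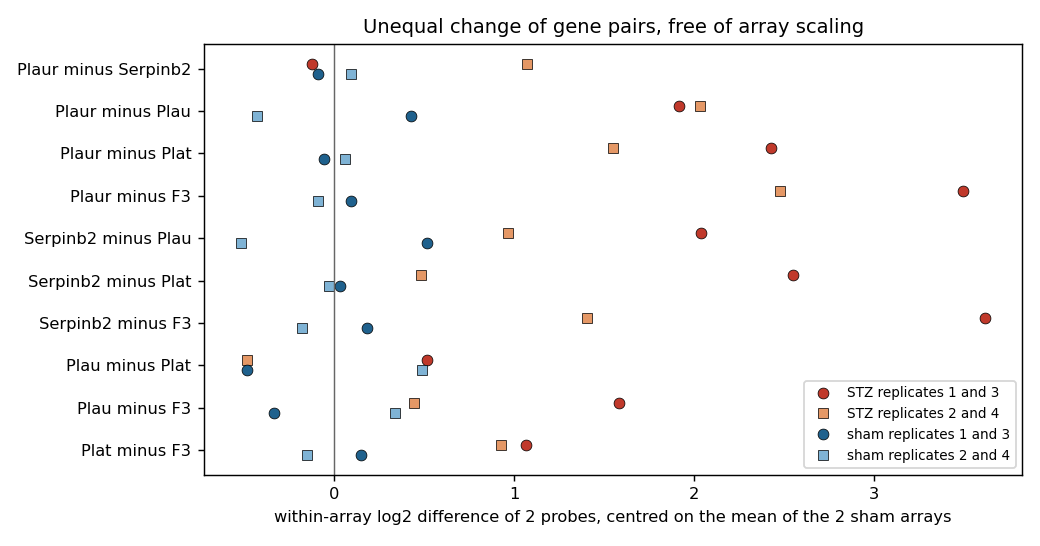
Within-array log2 difference between the probes of 2 genes (horizontal axis), centred on the mean of the 2 sham arrays, for the 10 pairs, with 1 point for each of 2 STZ and 2 sham arrays. The STZ points lie to the right of both sham points in 8 pairs and overlap with them in Plaur minus Serpinb2 and Plau minus Plat. Each pair is written with the gene of the larger change first, so the shared direction follows from that order.

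Of the 5 genes, 3 matched a promoter window of RefSeq (Plaur, Serpinb2 and Plau), and these are shown as the sequence next to the start of the gene. The windows are on the GRCr8 build and run from 250 bases before the start to 50 from it on, 5′ to 3′ on the gene's strand. They are Plaur at chr1:89181113-89181412 (plus strand), Serpinb2 at chr13:24055771-24056070 (plus strand) and Plau at chr15:3511938-3512237 (minus strand). Capitals mark matches on either strand to TGANTCA (the AP-1 word), TGACGTCA (the cyclic AMP response word), GGGCGG (a GC box), AGGAAG (an ETS word), TATAAA or the NF-kappaB consensus, and no 2 matches overlapped.
Plaur: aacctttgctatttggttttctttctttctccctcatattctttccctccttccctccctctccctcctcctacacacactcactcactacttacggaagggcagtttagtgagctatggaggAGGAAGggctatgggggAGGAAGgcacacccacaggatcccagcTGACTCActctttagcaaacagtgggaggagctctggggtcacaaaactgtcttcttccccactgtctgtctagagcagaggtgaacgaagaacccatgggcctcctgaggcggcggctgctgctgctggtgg
Serpinb2: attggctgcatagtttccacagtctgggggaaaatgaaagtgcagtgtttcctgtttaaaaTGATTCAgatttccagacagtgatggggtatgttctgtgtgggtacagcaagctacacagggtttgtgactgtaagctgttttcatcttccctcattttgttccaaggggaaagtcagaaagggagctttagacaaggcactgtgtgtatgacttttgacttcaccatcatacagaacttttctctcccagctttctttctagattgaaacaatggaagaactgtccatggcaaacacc
Plau: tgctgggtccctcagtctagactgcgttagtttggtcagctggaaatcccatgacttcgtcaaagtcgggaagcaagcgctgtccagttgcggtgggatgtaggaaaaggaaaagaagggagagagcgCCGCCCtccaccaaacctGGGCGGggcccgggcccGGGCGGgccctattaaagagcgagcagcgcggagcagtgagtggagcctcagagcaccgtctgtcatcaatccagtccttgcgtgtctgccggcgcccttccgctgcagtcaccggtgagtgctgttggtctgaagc

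The Plaur window held 1 TGANTCA match that begins 83 bases before the start, and 2 AGGAAG matches. The Serpinb2 window held 1 TGANTCA match that begins 189 bases before the start. The Plau window held 3 GGGCGG matches and no TGANTCA match. Among all 33469 windows of this length, 7.33% held the AP-1 word, while the GC box was in 33.1% and the ETS word in 34.5%. The TATAAA word was in 14.2% of all windows, the NF-kappaB consensus in 4.18% and the cyclic AMP response word in 1.83%, and these letters were not in the 3 windows shown. The bases were 54% G or C in the Plaur window, 42.7% in that of Serpinb2 and 61% in that of Plau, against a median of 51.7%. A match is a word in the sequence and not a shown binding site, and the words were chosen with the windows in view.

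Other tested genes of plasmin formation had smaller changes than Plaur in either direction. Of 24 listed partners of plasminogen activation, 19 were measured and 18 tested. At an unadjusted p under 0.05, 3 of the 18 were higher and 1 was lower in STZ, against 7.3% and 3.52% of all tested probes, and none passed after adjustment. The median log2 change was 0.26, where that of all tested probes is 0 by definition.

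Plg, the plasminogen gene, which is made mainly in liver, had log2 levels of −4.36 and −3.29 on the STZ arrays, against −3.95 and −4.47 on the sham arrays, and the groups overlapped. Cpb2, a carboxypeptidase that protects fibrin from plasmin, had a change of 1.54 ± 0.70 and was well above background in 6 of the 8 samples (unadjusted p = 0.0525).

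The cell-surface binding sites of plasminogen showed small differences. Anxa2 and S100a10, which form the annexin A2 complex that binds plasminogen and tissue-type activator, had changes of 0.25 ± 0.48 and 0.33 ± 0.47 (SE), and Plgrkt, a plasminogen receptor, one of 0.02 ± 0.45. The unadjusted p of these 3 genes was 0.289 or more. Itgb2 and Itgam, the chains of the myeloid integrin Mac-1 that partners the urokinase receptor, were the highest of the list. Itgb2 had levels of 3.50 and 2.72 on the STZ arrays, against 0.88 and −1.0 on the sham arrays, with a change of 2.95 ± 0.76 (adjusted p = 0.249). Itgam was at −0.76 and −2.43 on the STZ arrays, against −4.49 and −4.27 on the sham arrays, a change of 2.56 ± 0.67 (adjusted p = 0.250).

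Hgf, a growth factor that urokinase and related proteases can activate, had levels of −2.92 and −2.86 on the STZ arrays, against −5.52 and −4.84 on the sham arrays, a change of 2.06 ± 0.47 (adjusted p = 0.200). Mst1, a related factor that carries a protease-like domain, was lower in STZ, at −2.68 and −1.73, against 0.29 and 0.22 on the sham arrays, a change of −2.69 ± 0.51 (adjusted p = 0.202). The groups did not overlap for either gene.

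**Figure D4:**
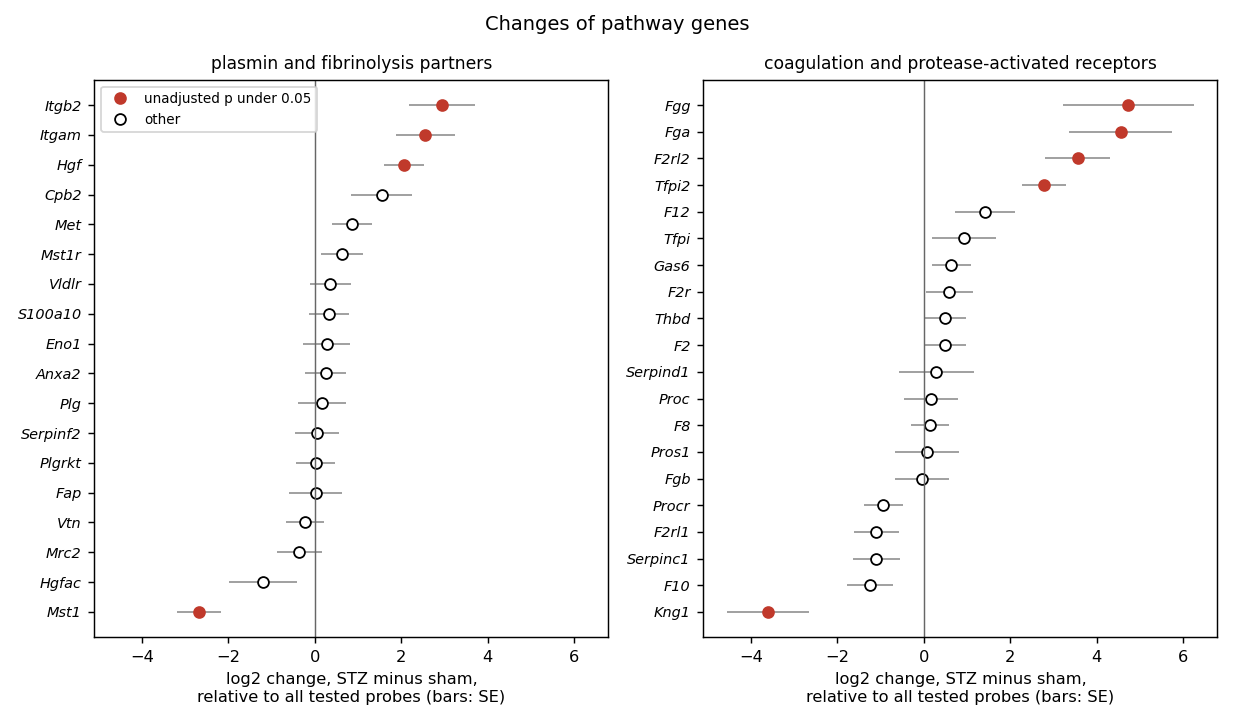
Log2 change with its SE (horizontal axis, STZ minus sham less the median change over all tested probes, 2 arrays per group) of the tested partners of plasminogen activation (left) and of coagulation genes and their receptors (right), filled where the unadjusted p is under 0.05. Filled points are 3 higher and 1 lower on the left and 4 higher and 1 lower on the right.

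On the coagulation side, where F3 stands first, 22 of 29 listed genes were measured and 20 tested. At an unadjusted p under 0.05, 4 of the 20 were higher and 1 was lower in STZ, against 7.3% and 3.52% of all tested probes, with a median log2 change of 0.39, and none passed after adjustment. F7, whose protein binds tissue factor, was not well above background in any sample. Tfpi2, an inhibitor of plasmin and of the tissue factor complex, had levels of −0.78 and −0.19 on the STZ arrays, against −3.15 and −3.83 on the sham arrays, a change of 2.78 ± 0.50 (SE, unadjusted p = 0.00183, adjusted p = 0.156). Tfpi, the main inhibitor of the tissue factor complex, had levels of 0.99 and 2.93 on the STZ arrays, against 0.91 and 0.72 on the sham arrays, and a change of 0.92 ± 0.74.

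The fibrinogen chains, the precursor of plasmin's main substrate, did not differ alike. Fga was at 1.77 and −1.73 on the STZ arrays, against −4.47 and −5.06 on the sham arrays, a change of 4.56 ± 1.19 (adjusted p = 0.261). A second probe of the gene was well above background in only 4 of the 8 samples, and its change is not given. Fgg was at 1.24 and −2.57 on the STZ arrays, against −4.31 and −6.94 on the sham arrays, a change of 4.73 ± 1.52 (adjusted p = 0.348), and was well above background in 7 of the 8 samples. Both had their higher STZ level on the first array, as Serpinb2 did. Fgb had a change of −0.04 ± 0.62.

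The receptors through which clotting proteases signal differed among themselves. F2rl2, the thrombin receptor PAR3, had levels of −0.37 and −2.25 on the STZ arrays, against −4.79 and −5.40 on the sham arrays, a change of 3.56 ± 0.75 (adjusted p = 0.191). F2r, the thrombin receptor PAR1, had a change of 0.59 ± 0.55, and F2rl1, the receptor PAR2 that the tissue factor complex can cut, one of −1.10 ± 0.52 (unadjusted p = 0.154). Thbd, thrombomodulin, had a change of 0.50 ± 0.48. Kng1, a kininogen, was lower in STZ, at 3.27 and 0.62, against 5.63 and 5.02 on the sham arrays, a change of −3.60 ± 0.95 (adjusted p = 0.314). F12, the contact factor, had a change of 1.41 ± 0.70 and was well above background in 6 of the 8 samples.

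Markers of neutrophils, of macrophages and dendritic cells and of T and NK cells were higher on the same STZ arrays, while none of 10 mast cell markers was higher at an unadjusted p under 0.05 (median −0.91). Of 13 measured neutrophil markers, 11 were tested, with a median log2 change of 2.65. At an unadjusted p under 0.05, 9 of these markers were higher, against 7.3% of all tested probes. The summed level of the 13, in units of the 75th percentile intensity, was 63.6 and 68.3 in STZ, against 2.02 and 1.75 in sham. S100a8, a calprotectin subunit, made up most of that sum, at log2 levels of 5.78 and 6.01, against 0.46 and 0.28. The mean log2 level of the 13 was −1.96 and −2.06 on the STZ arrays, against −4.93 and −5.29 on the sham arrays. S100a8 had a change of 5.30 ± 0.42 (SE, adjusted p = 0.0957 by limma), and Lcn2, lipocalin-2, one of 2.65 ± 0.49. Of the 13 measured, 6 were well above background in all 8 samples. Among the 9 that were higher, Fpr1 was so in only 4 samples and Mmp8 in 6. The filter asks for 4 samples, so signal in the STZ samples alone was enough for a test. The untested Cxcr1 was well above background in 2 of the 8 samples and Prtn3 in 3.

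Of 17 measured macrophage and dendritic cell markers, 16 were tested, with a median of 2.0. At an unadjusted p under 0.05, 13 were higher, against 7.3% of all tested probes. The summed level was 339 and 468 on the STZ arrays, against 112 and 52.6 on the sham arrays. Lyz2, a lysozyme, had a change of 2.84 ± 0.65 and Clec10a, a lectin of dendritic cells and macrophages, one of 1.22 ± 0.59. Marco was not well above background in any sample. Of 14 T and NK cell markers, 12 were higher, with a median of 2.31 and summed levels of 11.7 and 20.4 on the STZ arrays, against 2.55 and 1.98 on the sham arrays. Cd8a, a chain of the cytotoxic T cell coreceptor, had a change of 4.24 ± 0.42, and Cd3g, of the T cell receptor complex, one of 1.98 ± 0.54.

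Markers of endothelium, fibroblasts and basal keratinocytes had median changes nearer to 0. Of 7 endothelial markers, 1 was higher at an unadjusted p under 0.05, against 7.3% of all tested probes. Their median was 0.51, with summed levels of 36.6 and 60.3 on the STZ arrays, against 32.7 and 25.2 on the sham arrays. Plvap and Esam, genes of the vessel lining, had changes of 0.51 ± 0.49 and 0.55 ± 0.43. Of 8 fibroblast markers, 1 was higher, against the same 7.3%. Their median was 0.53, with summed levels of 449 and 925 on the STZ arrays, against 422 and 377 on the sham arrays. None of the 6 basal keratinocyte markers was past an unadjusted p of 0.05 (median −0.26), and their summed levels were 270 and 233 on the STZ arrays, against 300 and 154 on the sham arrays. In the list of suprabasal and activated keratinocytes (median −0.03), 1 of 5 was higher, Krt16 at 2.73 ± 0.81, against 7.3% of all tested probes. Of the same 5, 1 was lower, Ivl at −1.89 ± 0.42, against 3.52% of all tested probes. The list had summed levels of 157 and 51.4 on the STZ arrays, against 93.9 and 77.5 on the sham arrays. Krt1, a keratin of differentiating epidermis, had a change of 1.33 ± 0.72 and Krt17, a keratin of stressed epidermis and hair follicles, one of −1.54 ± 1.05.

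Larger differences stood in the hair list (median −6.39). All 16 tested genes were lower in STZ at an unadjusted p under 0.05, against 3.52% of all tested probes. The summed levels of the list were 113 and 5.49 on the STZ arrays, against 981 and 1064 on the sham arrays. Krt25 and Krt27, keratins of the inner root sheath, had changes of −4.41 ± 1.58 and −6.35 ± 2.0 (SE). Of 10 adipocyte genes, 4 were lower (median −1.29), and Fabp4 and Cfd, genes of fat cells, had changes of −0.98 ± 0.51 and −1.31 ± 0.54 (unadjusted p of 0.102 or more). None of 10 mast cell genes (median −0.91) was past an unadjusted p of 0.05. Of 8 smooth muscle and pericyte genes (median 0.25), 1 was higher at that threshold, against 7.3% of all tested probes. Cma1 and Cpa3, mast cell proteases, had changes of −1.11 ± 0.54 and −1.38 ± 0.60, and Des and Tagln, genes of muscle, had changes of 0.48 ± 0.46 and 0.27 ± 0.58. The part of these cell types in the changes of Plaur, Serpinb2, Plau and Plat was not tested.

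**Figure D5:**
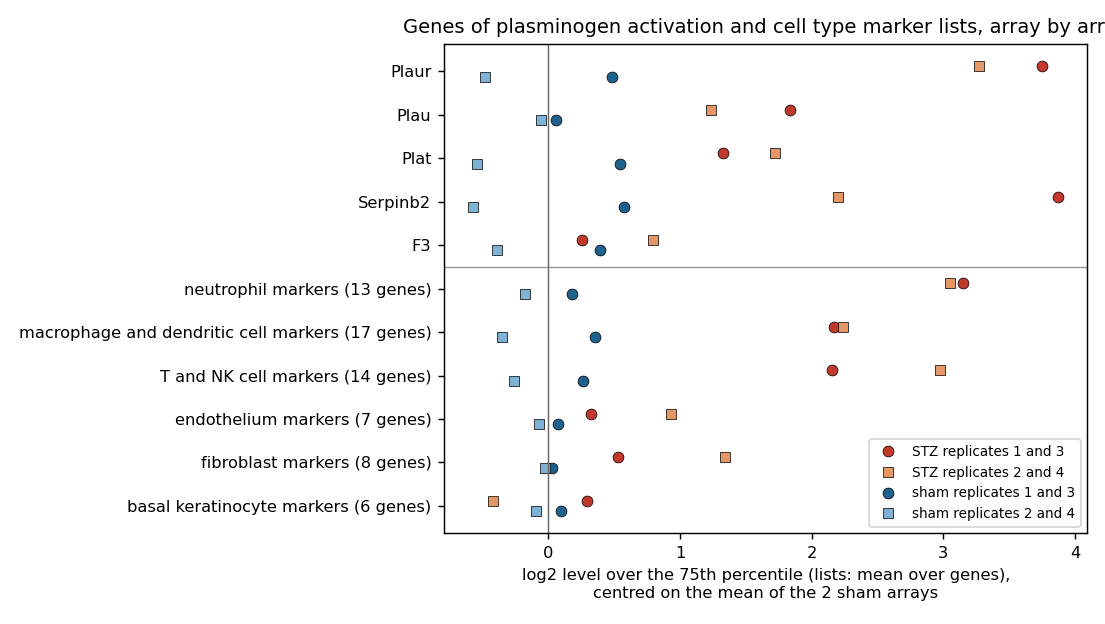
Log2 level over the 75th percentile of the 5 genes (upper part) and mean log2 level of 6 marker lists (lower part), centred on the mean of the 2 sham arrays (horizontal axis), with 1 point for each of 2 STZ and 2 sham arrays. Plaur, Serpinb2, Plau and Plat and all lists shown but that of basal keratinocytes have both STZ points right of both sham points, and Plat, F3 and the macrophage, T and NK cell, endothelial and fibroblast lists are higher on the second STZ array than on the first.

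Profiles over the 4 arrays were compared by the Euclidean distance of log2 levels centred on their own mean, among 11674 named genes well above background in all samples. The nearest to Plaur were Cxcl1, a neutrophil chemokine, at a distance of 0.18, Napsa, an aspartic protease, at 0.26 and Clec5a, a myeloid lectin, at 0.32. Cxcl1 had levels of 4.15 and 3.76 on the STZ arrays, against 0.74 and −0.20 on the sham arrays. The nearest to Serpinb2 were Ptgs2, the inducible cyclooxygenase, at 0.46, Pglyrp1, a peptidoglycan recognition protein, at 0.48 and Vnn3, a vanin, at 0.50, which is further than for the other genes.

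Plau had as its nearest genes Htr2a, a serotonin receptor, at 0.17, Itga4, an integrin chain of leukocytes, at 0.18 and Amn at 0.21. Plat had Irgm, an interferon-induced GTPase, at 0.08, Casp4, an inflammatory caspase, at 0.09 and Gpr183, a chemotactic receptor of lymphocytes and dendritic cells, at 0.11. F3 had Tmed3, B9d2 and Map3k3, at 0.08 to 0.09. How many genes lie this close to a profile of 4 arrays was not tested, and the distances are a description only.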

How the data were processed

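Cy3-labelled skin RNA was measured on Agilent arrays of 1 colour, per the labels' protocols. The deposited intensity of a spot is the scanner software's processed signal, background-subtracted and not scaled between arrays, which per the file headers was Feature Extraction 11.0.1.1 and per the submitters' processing notes 11.0.0.1. Flags of 0 or 1, deposited beside it, mark outlying and saturated spots and those well above background. The deposited median spot and local background intensities served in 2 alternatives, in place of the mean signals that had been planned.

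Processed intensities of 42136 noncontrol spots were divided by each sample's 75th percentile and taken to log2. Spots of a probe were averaged without outlier flags, scans of 1 array were averaged, and a probe was kept where 4 or more of the 8 samples had it well above background. STZ was compared with sham by lmFit and eBayes (limma 3.58.1, R 4.3.3; two-sided, Benjamini-Hochberg over 21529 probes). The SE uses a variance moderated across probes (3.01 prior and 2 residual degrees of freedom). The fit was checked on simulated data with noise drawn independently for each probe. That check does not cover deviations shared by the probes of an array. The arrays, 2 per group, limit the precision of every value, and all 4 lay on 1 slide.

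Accessions were matched without versions to RefSeq genes of GRCr8, which named 14294 probes. No gene coordinates are given, since the headers name rn4, and the promoter windows are RefSeq's own. A gene with several probes is given by its brightest. The 5 genes, the gene lists and the rule for named genes were chosen with earlier results of these data known. The rule takes all 5 genes, up to 6 genes with the smallest p and certain fixed genes of each pathway list, 2 genes with the highest mean level in each marker list, and the 3 nearest profiles to each of the 5 genes. Krt16, Ivl, Fgb and the markers named as dim were added after their values were seen. A further gene of the pathway is not reported here.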

Additional observations from a re-analysis of the deposited data

How the results depend on the processing

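Over 16 alternatives the log2 change ranged from 2.78 to 3.79 for Plaur, 1.82 to 3.84 for Serpinb2, 0.86 to 1.81 for Plau, 0.73 to 1.86 for Plat and −0.12 to 0.72 for F3. Alternatives with 8 separate samples, replicate blocks or weights on the arrays alter only the error in this design. They return the reported change and say nothing on its stability. The sign turned only for F3, on leaving out sham replicates 2 and 4 (−0.12, and up to 0.72 with another array left out). In 15 of the alternatives no adjusted p of the 5 genes was under 0.05, the lowest being 0.0696 for Plaur without STZ replicates 1 and 3. With all 8 samples as separate replicates, which counts each array as 2, Plaur (3.28, adjusted p = 0.000204), Plau (1.31, 0.00111), Serpinb2 (2.81, 0.00563) and Plat (1.29, 0.0113) passed. The count of the 5 genes at an unadjusted p under 0.05, computed over the alternatives after the data were seen, was 4 as reported and 3 or 4 elsewhere, except with arrays left out (1 to 3). Probes past adjustment numbered 0 as reported, 10 after normexp background correction with the 75th percentile, 5236 with 8 separate samples and 0 to 49 with 1 array left out. Counts of probes with unadjusted p under 0.05, higher and lower, 1572 and 757 as reported, were 925 and 560 after that correction, 1166 and 1332 after normexp with quantile normalization, 5318 and 3319 with 8 separate samples, 677 and 305 without sham replicates 2 and 4, 1031 and 367 without sham replicates 1 and 3, and 5380 and 1094 without STZ replicates 1 and 3. The cause of these differences was not tested.

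With the array number as a replicate block, 3 of the 5 genes had an unadjusted p under 0.05 (Plat 0.0634), with 1568 probes higher and 589 lower and 0 past adjustment. The deviations of same-numbered arrays from their group means had a correlation of −0.20 over 21529 probes. With 2 arrays per group this compares a single difference in each group, so it cannot show if the numbers pair the arrays. With the numbers crossed, an alternative added after the data were seen, 2082 probes were higher, 761 were lower and 4 of the 5 genes had an unadjusted p under 0.05. A slide block could not be fitted because all arrays lay on 1 slide, and averaging probes changed nothing because each of the 5 genes has 1. All 5 probes were well above background in all samples. Even so, all 5 changes were lower after normexp background correction with the 75th percentile, Plaur at 2.83 against 3.28 as reported. The median change of all tested probes, which is taken off, was 0.36 there in place of 0.23. The 2 arrays per group and the 1 spot per probe limited these values as well.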

Other observations

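Serpinb2 belongs to the clade B serpins, inhibitors that mostly act inside cells, of which 11 of 14 listed were measured and tested. At an unadjusted p under 0.05, 3 of the 11, Serpinb2 among them, were higher in STZ and 1 was lower, against 7.3% and 3.52% of all tested probes, with a median log2 change of 0.79 and none past adjustment. Serpinb10, a serpin of blood-forming cells, had levels of 3.48 and 1.71 on the STZ arrays, against −0.57 and −2.32 on the sham arrays, a change of 3.82 ± 0.89 (SE, adjusted p = 0.214). Serpinb12 had levels of 4.11 and 3.41 on the STZ arrays, against 1.76 and 0.02 on the sham arrays, a change of 2.64 ± 0.72 (adjusted p = 0.265). Serpinb13, a cathepsin inhibitor of keratinocytes, was lower in STZ, at 1.15 and 0.64, against 1.92 and 2.80 on the sham arrays, a change of −1.69 ± 0.52 (adjusted p = 0.427). Serpinb1a, an inhibitor of neutrophil proteases, and Serpinb9, an inhibitor of granzyme B, had changes of 1.04 ± 0.61 and 0.81 ± 0.45 (unadjusted p = 0.0911 and 0.0695 by limma).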
